A study of Bos taurus with 20 samples.

Results

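The genes described here are the mucins and galectins of the uterine surface: MUC1, MUC13, MUC15 and MUC16, and LGALS1, LGALS3, LGALS4, LGALS8 and LGALS9. They were chosen by name, with earlier results of these data known. Of the 43653 probes on the array, 19 carried 1 of these names and covered 7 of the 9 genes. MUC13 and MUC16 were not used as probe names in the array's design, so 3 probes of MUC13 and 1 of MUC16 were found by the accession or description of the design and are given separately, which makes 23 probes.

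The samples were endometrial biopsies of 10 cows (Bos taurus), measured on 20 one-colour arrays, 1 per biopsy. Every cow gave an early biopsy on 1 of days 42 to 86 after calving (60.1 ± 13.3, mean and SD of 10 cows) and a late biopsy on 1 of days 343 to 436 (388.9 ± 27.5). No treatment separates the groups, and per the design text all biopsies were taken with forceps on day 7 after oestrus, from the horn ipsilateral to the corpus luteum. Because the late biopsy of a cow always followed its early one, age and sampling order cannot be told apart from the interval after calving. A biopsy holds a mixture of cells, and in such samples fewer cells of a type and less RNA per cell cannot be told apart.

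Of 43803 noncontrol spots, each array had 71.8% to 80.2% well above local background and none saturated. All 8 epithelial and all 7 stromal fibroblast markers were measured, which fits the tissue label. Of 5 trophoblast markers, PRP1 was well above background on 20 of 20 arrays, PAG1 on 5, CSH2 on 4 and PAG2 and TKDP1 on 2 each. The early array of cow 9 stood apart: EPCAM was 2.40 there and between 3.90 and 4.86 on the other 19 arrays, and the smooth muscle gene MYH11 was at its highest, 4.06. The early array of cow 4 had the highest level of the neutrophil gene S100A12, 3.45. The 20 arrays lay on 5 slides, of which 2 held early arrays only, 2 late arrays only and slide 3 held 2 of each, so slide and period can hardly be told apart.

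Transmembrane mucins are long, heavily O-glycosylated proteins on the apical side of the uterine epithelium. They form a lubricating and protective coat, they hinder contact between an embryo and the epithelium, and they can be shed by proteases at the cell surface. Galectins are small lectins without a signal peptide that bind beta-galactosides, among them the sugar chains of mucins, and cross-link glycoproteins outside and inside the cell. In ruminants MUC1 and several galectins have been studied as parts of the surface that the conceptus meets.

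None of the 20 probes of these genes that could be tested passed the test of late against early. The test was limma's paired fit with Benjamini-Hochberg adjustment over 33764 probes, at an adjusted p of 0.05, and 381 of those probes, 1.13%, passed it. The 3 remaining probes (1 each of MUC13, MUC15 and MUC16) were well above background on fewer than 8 arrays and were not tested. Levels are log2 values relative to the array's 75th percentile and are compared within a probe only. The difference was negative (late below early) in 18 of the 20 probes and positive in 2, and its median was -0.25, against -0.02 over all tested probes, of which 52.6% were negative. Without cows 4 and 9, 12 of the 20 were negative with a median of -0.10, and with slide as a further fixed block 3 were negative with a median of 0.42. None passed with slide as a fixed block. By the layout of arrays on slides, that fit counts the differences of cows 3, 4, 7 and 8 with reversed sign. Its direction therefore cannot be set beside that of the main fit. Before adjustment, 7 of the 20 probes had a p under 0.05, against 23.8% of all tested probes. Of these 7, 6 were lower late and 1 was higher late, against 13.4% and 10.4% of all tested probes. Several of these probes report the same transcript, so they are not independent of each other.

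**Figure D1:**
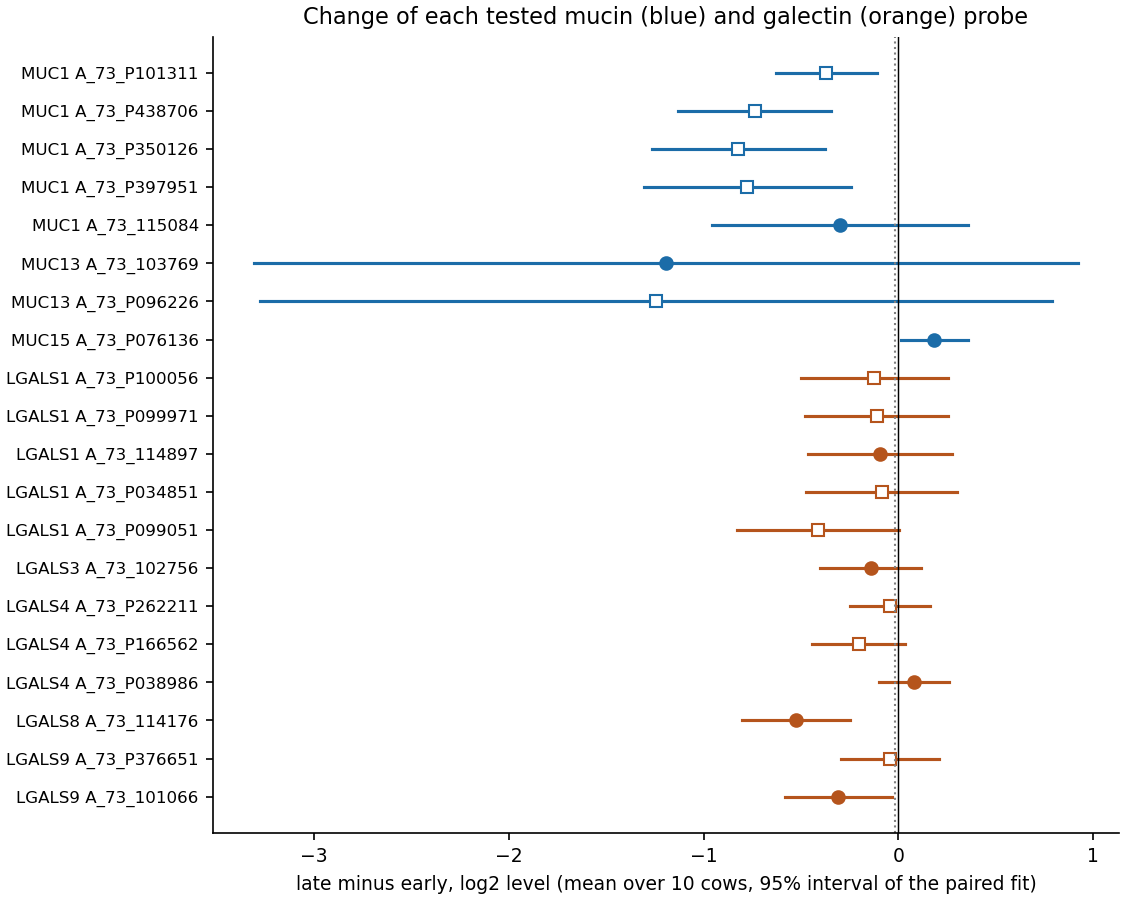
Late minus early difference in log2 level for each of the 20 tested probes (mucins blue, galectins orange). Points are the mean over 10 cows, bars the 95% interval of the paired fit, filled circles the probe of highest mean of each gene, and the dotted line the median of all tested probes. The intervals of 4 MUC1 probes, LGALS8 and 1 LGALS9 probe lie below 0, that of MUC15 lies above it, and the MUC13 intervals are several times wider than the others.

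MUC1 is the major transmembrane mucin of glandular and luminal epithelium. Its 5 probes lie in order along chromosome 3 (all coordinates are those of the array's design, build HGSC Btau_3.1, and the files used here give no exon or UTR for them). The 4 upstream probes are shown because they gave a larger mean difference than the probe at the 3′ end. For A_73_P101311 it was only slightly larger (-0.37 against -0.30). No letters are in capitals, since neither motif searched for here (AATAAA and the sugar-binding motif of galectins) occurs in them.
MUC1 A_73_P101311: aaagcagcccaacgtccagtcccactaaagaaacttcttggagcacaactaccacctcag
MUC1 A_73_P438706: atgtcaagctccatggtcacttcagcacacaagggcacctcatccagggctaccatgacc
MUC1 A_73_P350126: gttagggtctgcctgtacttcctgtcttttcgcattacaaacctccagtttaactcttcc
MUC1 A_73_P397951: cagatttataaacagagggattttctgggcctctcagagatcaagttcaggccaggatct

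These probes lie at chr3:16808518-16808574, chr3:16809458-16809517, chr3:16809662-16809721 and chr3:16809895-16810070, all on the plus strand. The last spans 176 bases of genome with a 60-base probe, so its target joins separated pieces of the gene. The fifth probe, A_73_115084, lies 1865 bases further on, at chr3:16811936-16811995, and holds the letters AATAAA, the core of the polyadenylation signal, which 9.35% of all probes hold on the same strand and 3.46% on the other. No pair of the 5 probes shares a run of more than 7 bases, so they are separate readings of the transcript.

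Probe A_73_P350126 ranged from -4.74 through a median of -2.76 to -1.02 on the early arrays and from -4.80 through -3.56 to -3.04 on the late arrays. The ranges overlapped, but the level was lower late in 9 of 10 cows, with cow 9 the exception. The mean difference was -0.82 ± 0.20 (SE, n = 10 cows), a 1.77-fold lower level (95% interval 1.30 to 2.40), with an adjusted p of 0.0666 in limma. Its neighbour A_73_P438706 went from -4.77, -3.12 and -1.48 (lowest, median and highest, early) to -4.85, -3.83 and -3.29 late, and was lower late in 10 of 10 cows. That difference was -0.74 ± 0.18 (SE), 1.67-fold lower (1.27 to 2.19), with a limma adjusted p of 0.0642. Probe A_73_P397951 had a difference of -0.77 ± 0.24 (limma adjusted p = 0.103) and was lower late in 9 of 10 cows. The most upstream probe, A_73_P101311, was dim, at a mean of -5.92 early and -6.29 late, and well above background on 10 early but only 5 late arrays. Its difference was -0.37 ± 0.12 (limma adjusted p = 0.106), and under normexp background correction -0.04 (95% interval -0.15 to 0.07).

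At the 3′ end, probe A_73_115084 was the brightest MUC1 reading, at a mean of 2.49 ± 0.83 early and 2.19 ± 0.73 late (SD, n = 10). It ranged from 0.65 through 2.58 to 3.87 early and from 0.38 through 2.33 to 2.86 late. The lowest early value was that of cow 9, the highest early value that of cow 4, and the lowest late value that of cow 5. It was lower late in 8 of 10 cows, by a mean of -0.30 ± 0.30 (SE, limma adjusted p = 0.557), and cow 9 moved the other way by 2.21. Without cow 9 the difference was -0.58 ± 0.19 (limma adjusted p = 0.129), without cow 4 it was -0.15 ± 0.30 (0.781), and without both it was -0.45 ± 0.16 (0.157).

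The MUC1 probes therefore disagreed in size though not in direction. The difference of each upstream probe from the 3′ probe was tested on its own, by a comparison added after the values were seen, over 14373 pairs of probes of 1 gene. Of these pairs 410, 2.85%, passed at an adjusted p of 0.05, and none of the 11 pairs of these genes did. Before adjustment 5 of the 11 had a p under 0.05, 4 of them lower and 1 higher late, against 26.6% of all pairs. Relative to the 3′ probe, A_73_P397951 was lower late by a further -0.47 ± 0.12 (SE, limma adjusted p = 0.0553, lower in 10 of 10 cows). For A_73_P350126 the value was -0.52 ± 0.18 (limma adjusted p = 0.110) and for A_73_P438706 -0.44 ± 0.21 (limma adjusted p = 0.202). A_73_P101311 stood at -0.07 ± 0.25 (limma adjusted p = 0.888). Without cow 9 these 4 values were -0.37 ± 0.08, -0.35 ± 0.10, -0.24 ± 0.10 and 0.17 ± 0.13 (SE, same order of probes), and without cows 4 and 9 they were -0.36, -0.31, -0.22 and 0.11. The last therefore changed sign. Among genes whose array name holds only capital letters and digits, 7037 probes lay at least 1000 bases upstream of the brightest probe of their gene. They shifted the same way, with a median of -0.13 and 76.4% below 0. The 1056 probes at least 1000 bases downstream, taken without that limit on names, had a median of 0.03 and 41.9% below 0. The part of this general shift in the MUC1 result was not tested.

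**Figure D2:**
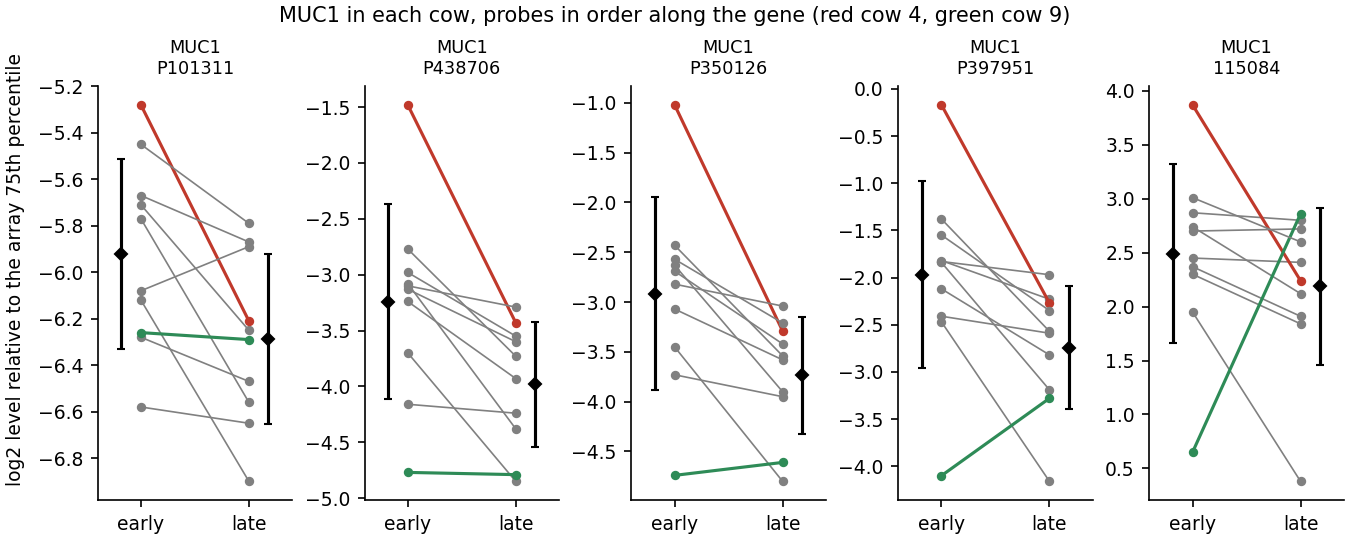
MUC1 level of each cow early and late (log2, lines join the 2 biopsies of a cow; diamonds are the mean and SD over 10 cows), in 5 panels ordered along the gene, each with its own scale. Cow 4 (red) has the highest early value in every panel; cow 9 (green) goes from 0.65 to 2.86 at the 3′ probe but is nearly level at A_73_P438706, -4.77 against -4.79.

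Leaving out cows 4 and 9 kept the direction of all 5 MUC1 probes, and A_73_P350126 then passed, at -0.76 ± 0.14 (SE, 8 cows, limma adjusted p = 0.0477). In that fit 312 of all 33764 tested probes (0.92%) passed. With slide as a further fixed block, 4 of the 5 probes turned positive, with wide intervals: A_73_P350126 stood at 0.17 (95% interval -1.36 to 1.70). That fit counts cows 3, 4, 7 and 8 with reversed sign, so its direction is not comparable. Within slide 3 alone it was -0.03 ± 0.77, and without the early array of cow 9 it was -1.12 ± 0.35 (SE). On the early array of cow 9, where MUC1 was at its early minimum by 4 of its 5 probes, the epithelial genes KRT8, KRT18, CDH1 and EPCAM were at 2.82, 1.33, 1.51 and 2.40, each its lowest of 20 arrays. The summed level of the 8 epithelial markers ranged from 4.37 to 6.10 early and from 5.54 to 6.45 late. Their part in the MUC1 result was not tested.

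MUC13, a transmembrane mucin known from the intestinal epithelium, spanned the widest range of levels of the 9 genes. MUC16, the large mucin that carries the CA125 epitope, and MUC15, a smaller membrane-bound mucin, were dim: the MUC16 probe was well above background on 4 arrays and the MUC15 probes on 1 and 12. One probe each of MUC13 and MUC16 is shown because these readings were above background on 3 and 4 arrays only; they carry no capitals.
MUC13 A_73_P122616: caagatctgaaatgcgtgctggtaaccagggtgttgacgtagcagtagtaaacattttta
MUC16 A_73_P084081: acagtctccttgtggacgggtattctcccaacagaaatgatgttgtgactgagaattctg

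These lie at chr1:70521652-70521711 and chr7:11478068-11480288, on the minus strand. The MUC16 interval covers 2221 bases for a 60-base probe. The other MUC13 probes, A_73_P096226 at chr1:70511055-70511114 and A_73_103769 at chr1:70510366-70510425, lie downstream of the one shown, and A_73_103769 is named in the design only by its likeness to human MUC13.

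MUC13 was high on 3 arrays and low on the other 17. The brightest probe, A_73_103769, was 4.57 on the early array of cow 4, 3.49 on the early array of cow 10 and 0.96 on the late array of cow 6, and the other 17 arrays lay between -5.18 and -1.59. The same 3 arrays stood out by A_73_P096226, at 1.11, -0.32 and -2.80, with the others between -8.82 and -5.73. They stood out again by A_73_P122616, at -2.13, -3.16 and -5.96, the only arrays on which that probe was well above background. The 3 probes share no run of more than 6 bases, and their levels correlated at r = 0.92 to 0.98 over the 20 arrays, a description that rests on these 3 arrays. No cow was high in both periods: the late level of cow 4 by the brightest probe was -2.75 and that of cow 10 was -3.25, and the early level of cow 6 was -2.89.

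The mean of MUC13 by that probe was -1.99 ± 3.27 early and -3.19 ± 1.87 late (SD, n = 10), and it was lower late in 6 of 10 cows. The difference of -1.19 ± 0.97 (SE, limma adjusted p = 0.465) was smaller than the spread between cows. Without cow 4 it was -0.51 ± 0.84 and without cow 10 -0.58 ± 0.89. Within slide 3, an unpaired fit of 2 early arrays (cows 9 and 10) and 2 late arrays (cows 1 and 2), it was -4.83 ± 2.20 (SE, limma adjusted p = 0.646). Without the early array of cow 9, which leaves 1 early array, that of cow 10, it was -8.10. Cow 4's early array was on slide 1, cow 10's on slide 3 and cow 6's late array on slide 4.

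**Figure D3:**
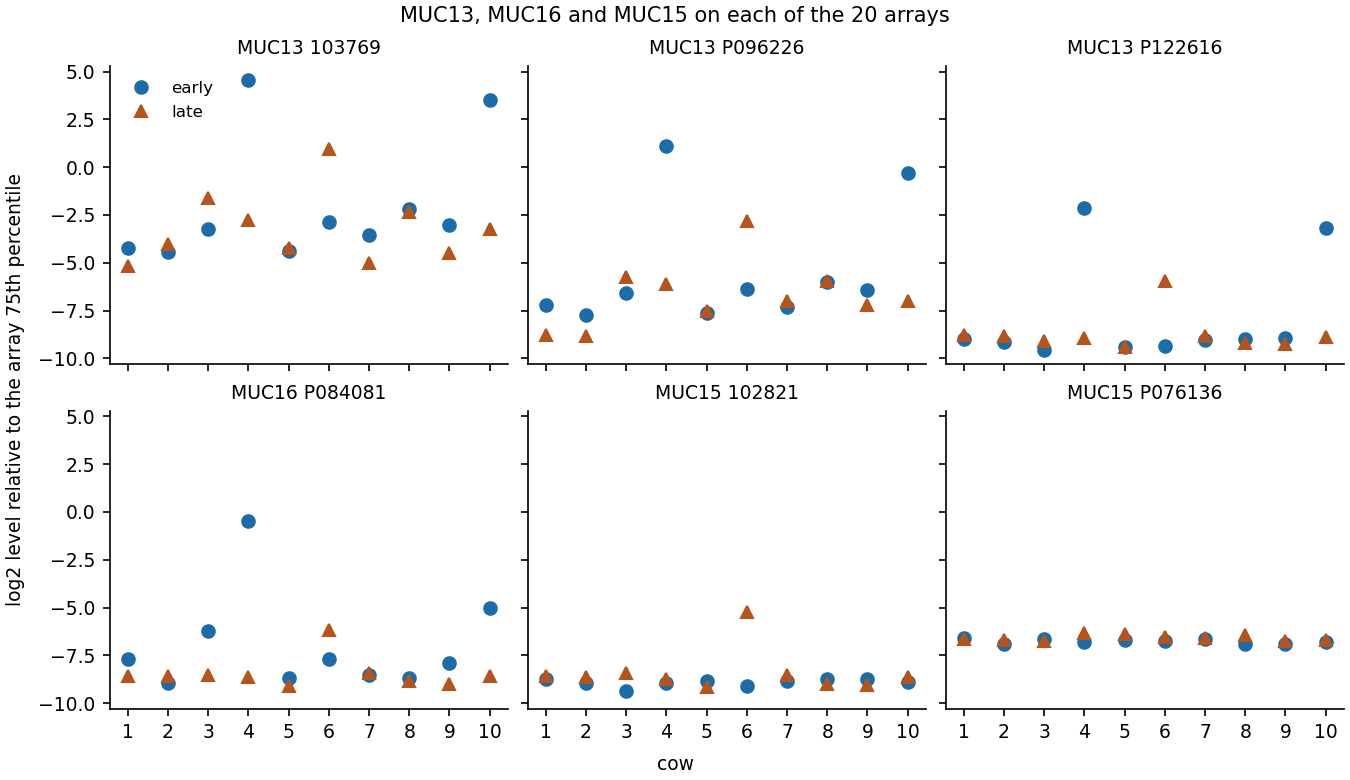
Levels of MUC13, MUC16 and MUC15 probes on each array (log2; early circles, late triangles; cow number on the horizontal axis, the same vertical scale in all panels). All 3 MUC13 probes are high on the early arrays of cows 4 and 10 and on the late array of cow 6, MUC16 is highest on the early array of cow 4 at -0.46, and 1 MUC15 probe stands out on the late array of cow 6 at -5.25.

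MUC16 was well above background on 3 early arrays and 1 late array and was not tested. It stood at -0.46 on the early array of cow 4, at -5.00 and -6.22 on those of cows 10 and 3, and at -6.17 on the late array of cow 6, with every other array between -9.10 and -7.67. The 3 arrays of high MUC13 were thus among the 4 with the highest MUC16. MUC15 probe A_73_102821 was well above background on 1 array, the late array of cow 6, at -5.25. The other MUC15 probe, A_73_P076136, was on 6 arrays of each period and ranged from -6.91 to -6.61 early and from -6.77 to -6.32 late, with no high value on any of the 3 arrays. It was higher late in 8 of 10 cows, by 0.18 ± 0.08 (SE, limma adjusted p = 0.188). The 2 MUC15 probes therefore did not read the same arrays as high (r = 0.14 over 20 arrays).

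The 8 epithelial markers had no common order on these 3 arrays. On the early array of cow 4 the keratins KRT7 and KRT19 were the highest of 20, at 1.90 and 3.03. On the early array of cow 10 KRT7 was the lowest, at -3.99, and the tight junction gene CLDN4 the highest, at -1.32. On the late array of cow 6 KRT7 ranked 2 of 20, at -0.62, and CLDN4 was the lowest, at -3.48. The summed level of the 8 markers ranked 4, 6 and 18 of 20 on these arrays. The part of cell makeup in the MUC13 pattern was not tested.

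Among the galectins, LGALS1 is a prototype galectin abundant in stroma, LGALS3 the chimera-type galectin of epithelia and macrophages, LGALS4 is a tandem-repeat galectin of epithelia, and LGALS8 and LGALS9 are tandem-repeat galectins with separate sugar-binding domains at their ends. The sequences that follow are probes of 4 galectins that the results compare. Capitals mark the codons of the histidine-x-asparagine-proline-arginine motif, residues of the galectin pocket that hold the sugar. It occurs in 7 of the 43653 probes (0.0160%) on the same strand and in 9 on the other, and in 1 probe of these genes.
LGALS1 A_73_P100056: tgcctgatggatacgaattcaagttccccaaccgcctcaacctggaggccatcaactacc
LGALS1 A_73_P099051: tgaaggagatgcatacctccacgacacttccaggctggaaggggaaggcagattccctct
LGALS4 A_73_P262211: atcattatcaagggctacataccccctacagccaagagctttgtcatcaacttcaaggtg
LGALS8 A_73_114176: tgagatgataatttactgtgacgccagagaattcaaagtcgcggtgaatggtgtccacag
LGALS9 A_73_P376651: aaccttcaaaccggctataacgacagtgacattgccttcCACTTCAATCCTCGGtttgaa
LGALS9 A_73_101066: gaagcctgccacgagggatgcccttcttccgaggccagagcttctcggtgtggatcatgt

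The LGALS1 probe A_73_P100056 lies at chr5:116535381-116535440 on the plus strand, next to 3 further probes of the same strand. A_73_P099051, at chr5:116534960-116535356, is given on the minus strand, opposite to the gene, and is therefore kept apart from the other 4. LGALS4 A_73_P262211 lies at chr18:48055216-48055470 on the minus strand. LGALS9 A_73_P376651 lies at chr19:19230146-19230205 and A_73_101066 downstream of it at chr19:19237489-19239751, both on the plus strand, and the LGALS8 probe is listed as unmapped in the design.

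LGALS8 was lower late in every cow. Its probe ranged from -3.61 through -3.11 to -2.12 early and from -3.95 through -3.58 to -3.36 late, with 10 of 10 cows lower late. The early array of cow 4 was the highest, and the ranges overlapped. The mean went from -3.06 ± 0.41 to -3.59 ± 0.17 (SD, n = 10), a difference of -0.53 ± 0.13 (SE) or a 1.44-fold lower level (95% interval 1.19 to 1.75). With a limma adjusted p of 0.0637 it did not pass. Without cows 4 and 9 the difference was -0.43 ± 0.09 (limma adjusted p = 0.0652), and within slide 3 (unpaired, 2 early and 2 late arrays) it was -0.55 ± 0.28 (SE). With cow as a random effect it passed, with a limma adjusted p of 0.0242, as did 1540 of all 33764 tested probes (4.56%). With slide as a further fixed block, a fit that counts cows 3, 4, 7 and 8 with reversed sign, the LGALS8 difference was 0.63 (95% interval -0.36 to 1.61).

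The 2 LGALS9 probes were both dim and differed from each other. A_73_101066 ranged from -4.96 through -4.35 to -3.67 early and from -5.13 through -4.53 to -4.32 late, and was lower late in 7 of 10 cows, by -0.31 ± 0.13 (SE, limma adjusted p = 0.172). A_73_P376651, which holds the sugar-binding codons, ranged from -5.16 through -4.73 to -4.32 early and from -5.09 through -4.76 to -4.57 late. It was lower in 5 cows and higher in 5, with a difference of -0.04 ± 0.11 (limma adjusted p = 0.836) that turned positive under normexp correction, under quantile normalization and without cow 9. Tested against each other, the upstream probe was higher relative to the downstream one late, by 0.26 ± 0.08 (SE, limma adjusted p = 0.0793), in 8 of 10 cows. This direction is opposite to that of the MUC1 pairs and to the median of the upstream probes of other genes given above.

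LGALS1 was bright in both periods and its 4 plus-strand probes gave like differences. They are partly 1 reading: A_73_114897 shares runs of 38 bases with A_73_P099971 and 32 with A_73_P034851, while A_73_P100056 shares no run over 7 bases with any of them. By A_73_114897, the brightest, the level ranged from 3.80 through 4.19 to 5.22 early and from 3.70 through 4.27 to 4.68 late. The highest value was that of cow 4 early, and the periods overlapped over nearly their whole range. The means were 4.31 ± 0.41 and 4.22 ± 0.31 (SD, n = 10), with 5 cows lower and 5 higher late. The difference was -0.10 (95% interval -0.46 to 0.27, limma adjusted p = 0.752), and the 3 other plus-strand probes gave -0.09, -0.11 and -0.12. Without cow 4 all 4 turned positive, A_73_114897 to 0.06 ± 0.10 (SE). The minus-strand probe A_73_P099051 was far dimmer, between -3.65 and -1.35 early and between -3.85 and -2.25 late, and lower late in 8 of 10 cows by -0.41 ± 0.19 (SE, limma adjusted p = 0.212). Without cows 4 and 9 that was -0.13 ± 0.10.

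LGALS3, read by 1 probe at chr10:69420276-69420335, ranged from 2.54 through 2.89 to 4.04 early and from 2.16 through 2.95 to 3.28 late. The early array of cow 9 was the highest, and the next early array stood at 3.24. The difference was -0.14 ± 0.12 (SE, limma adjusted p = 0.479) and -0.06 ± 0.10 without cow 9. On that array the macrophage genes CD68, VSIG4 and MSR1 were also at their highest, 0.57, 1.13 and 0.39. The macrophage genes CD14, CSF1R, AIF1 and CD163 were not. They stood at 0.55, 1.44, 1.69 and -5.18, against highest values of 1.66, 1.87, 1.70 and -2.96. Over all cows, 3 of 7 macrophage markers fell (CD68 by 1.79 ± 0.22, VSIG4 by 1.47 ± 0.16 and MSR1 by 0.85 ± 0.13, SE, limma adjusted p = 0.00547, 0.00472 and 0.0183) and none rose. The MSR1 call was lost without cow 1 (limma adjusted p = 0.0547) and without the cow block (0.0905). Their summed level ranged from 1.86 to 3.70 early and from 1.43 to 3.07 late, and their part in the LGALS3 values was not tested.

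None of the 3 LGALS4 probes passed, and they did not follow each other alike. Over the 20 arrays the brightest correlated with the others at r = -0.06 and 0.28, and those with each other at 0.90, a description of probes on shared arrays. The brightest probe, A_73_P038986 at chr18:48054746-48054805, ranged from 0.50 through 1.09 to 1.68 early and from 0.73 through 1.103 to 1.88 late. It was higher late in 8 of 10 cows, with cows 4 and 10 lower, by 0.08 (95% interval -0.10 to 0.26, limma adjusted p = 0.566). Cow 1 was at 1.65 early and 1.88 late, and cow 5 at 0.64 and 0.73. The upstream probe A_73_P262211 differed by -0.04 ± 0.09 (SE, limma adjusted p = 0.803). Probe A_73_P166562, whose listed position covers only 9 bases, differed by -0.20 ± 0.11 (limma adjusted p = 0.278). Relative to the brightest probe it was lower late in 10 of 10 cows, by -0.28 ± 0.08 (SE, limma adjusted p = 0.0631).

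**Figure D4:**
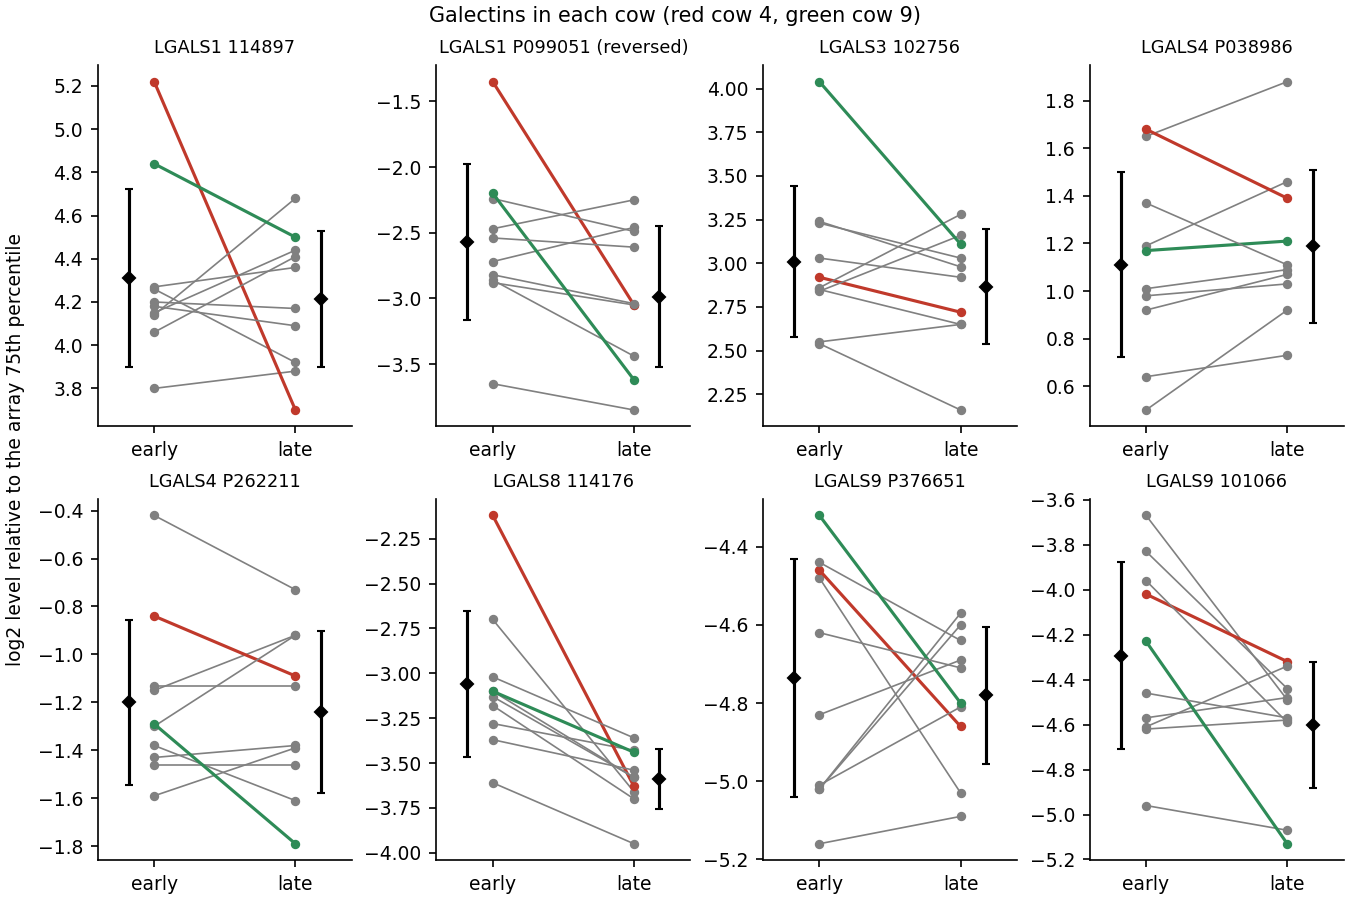
Galectin levels of each cow early and late (log2, lines join the 2 biopsies of a cow; diamonds are the mean and SD over 10 cows; each panel has its own scale). LGALS8 is lower late in all 10 cows, LGALS1 and LGALS9 A_73_P376651 have 5 cows in each direction, and LGALS3 is highest on the early array of cow 9 (green) at 4.04.

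The genes that build, cut or bind these molecules were read from lists chosen by function, 1 probe per gene. Of 9 other mucins and mucin-like proteins, 1 fell and none rose: SELPLG, the mucin-like selectin ligand of leukocytes, was lower late in 10 of 10 cows, by -0.75 ± 0.14 (SE, limma adjusted p = 0.0360). It no longer passed when cow 1, 2, 3, 4, 6, 7, 8 or 10 was omitted (limma adjusted p = 0.0575 to 0.0762), with no filter (0.0516), with slide as a random block (0.0677) and without the cow block (0.119). The median of that list was 0.02. Of 4 other galectins none passed; LGALS7B stood at 0.70 ± 0.30 (SE, limma adjusted p = 0.188), with levels that spread widely (SD 1.75 early, 1.05 late), and GRIFIN at 0.09 ± 0.12 (limma adjusted p = 0.660).

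In the glycan lists no gene passed in either direction. Among 22 genes of mucin O-glycan assembly (median -0.04, 10 positive), C1GALT1C1, the chaperone of the core 1 synthase, stood at 0.32 ± 0.11 (SE, limma adjusted p = 0.132). In the same list GCNT1, which makes core 2 branches, stood at 0.66 ± 0.24 (limma adjusted p = 0.136). Of 19 genes that cap chains with sialic acid or fucose (median -0.09), FUT4 stood at -0.65 ± 0.20 (limma adjusted p = 0.101) and ST6GALNAC4 at -0.34 ± 0.13 (limma adjusted p = 0.156). Of 14 genes of N-glycan branching (median -0.04), the branching enzymes MGAT4A and MGAT4C stood on opposite sides. MGAT4A was at -0.57 ± 0.19 (SE, lower in 10 of 10 cows, limma adjusted p = 0.110). MGAT4C was at 2.01 ± 0.53 (higher in 10 of 10 cows, limma adjusted p = 0.0752), and at 1.19 without cows 4 and 9, where it passed (limma adjusted p = 0.0452).

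Of 18 genes for mucin shedding and cytoskeletal linkage (median -0.11) none passed. MMP14, a membrane protease able to release MUC1, stood at -0.92 ± 0.24 (SE, lower in 9 of 10 cows, limma adjusted p = 0.0727) and BACE1 at -0.26 ± 0.11 (limma adjusted p = 0.177). None of 23 galectin binding partners passed, with 18 below 0 and a median of -0.18. LGALS3BP, a secreted galectin ligand, was lower late in 10 of 10 cows, by -0.31 ± 0.08 (SE, limma adjusted p = 0.0642). FN1, fibronectin, stood at -0.74 ± 0.19 (limma adjusted p = 0.0702). None of 13 partners of conceptus attachment passed (10 below 0, median -0.41). Among them were the integrin subunit ITGB5 at -0.81 ± 0.26 (SE, limma adjusted p = 0.104) and the adhesion molecule ALCAM at -0.35 ± 0.12 (limma adjusted p = 0.112).

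Of 13 receptors for hormones and cytokines (median -0.04) none passed; IFNGR2 stood at -0.42 ± 0.15 and IFNAR1 at -1.20 ± 0.47 (SE, limma adjusted p = 0.133 and 0.160). Interferon-stimulated genes, to which LGALS9 and LGALS3BP are often counted, had 26 of 29 values below 0 and a median of -0.33, and none passed. IFI6 stood at -0.87 ± 0.29 and EIF2AK2 at -0.70 ± 0.19 (SE, limma adjusted p = 0.111 and 0.0745), both lower in 10 of 10 cows.

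**Figure D5:**
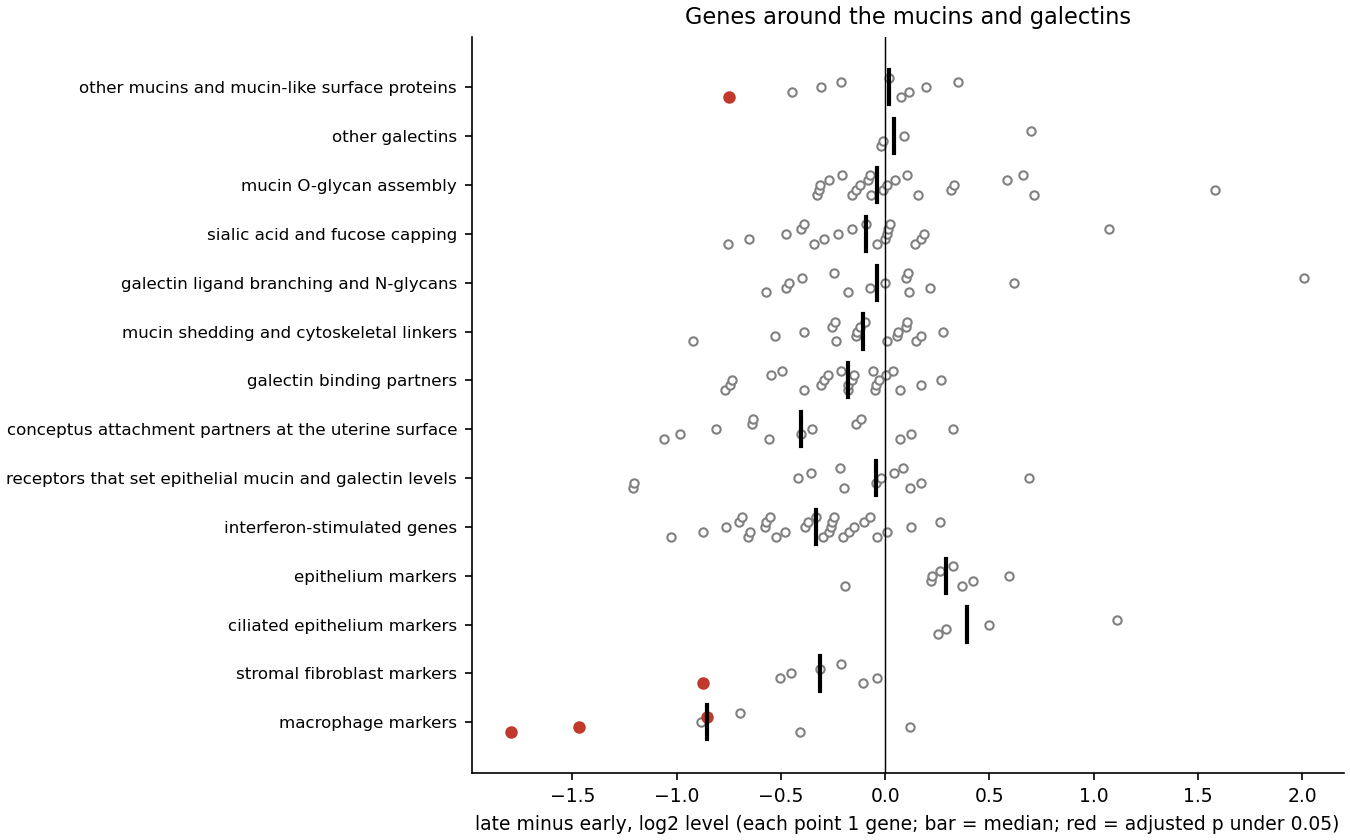
Late minus early difference (log2) of each gene in the lists of mucins, galectins, glycan enzymes and partners, and in 4 marker lists; each point is 1 gene, bars are list medians, red points passed the test. SELPLG, HAND2 and 3 macrophage genes are red, and the medians of the epithelial lists lie at 0.29 and 0.39 while that of the macrophage list lies at -0.85.

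The cell type markers moved as follows beside the mucins and galectins. Of 8 epithelial markers none passed and 7 were above 0 (median 0.29), with KRT18 at 0.42 ± 0.17 and KRT8 at 0.26 ± 0.15 (SE, limma adjusted p = 0.167 and 0.313). All 4 ciliated markers were above 0 and none passed (SPAG6 1.11 ± 0.39, DNAI1 0.50 ± 0.31). Of 7 stromal markers, all below 0, HAND2 fell by 0.87 ± 0.18 (SE, limma adjusted p = 0.0463), which no longer passed when cow 1, 2, 3, 4, 6, 7, 8 or 10 was omitted (0.0573 to 0.0971). Nor did it pass without cows 4 and 9 (limma adjusted p = 0.0539), with no filter (0.0642), with slide as a random block (0.0788) or without the cow block (0.0906). The MUC1 probes, which read an epithelial gene, thus lay below 0 while most epithelial markers lay above it. The difference between them was not tested. In cow 9, whose early array stood apart, all 8 epithelial markers were higher late, with EPCAM going from 2.40 to 4.82 and CDH1 from 1.51 to 3.45. The marker differences without cow 9 are not given here. Of 5 T and NK cell markers NKG7 fell by 1.20 ± 0.19 (limma adjusted p = 0.0256), which no longer passed when cow 1, 6, 8 or 10 was omitted (0.0517 to 0.0677) or with slide as a random block (0.0533). With slide as a fixed block and within slide 3 none of the genes named as fallen here passed. No gene passed among the 3 endothelial (PECAM1 -0.18, CDH5 -0.29), 4 smooth muscle (DES 0.34, CNN1 -0.34), 3 neutrophil (S100A8 0.30, S100A9 0.45) and 2 red blood cell markers (HBA 0.48, HBB 0.34), nor did the 1 tested trophoblast gene, PRP1 (0.02).

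Within the periods, levels were also set against the day of biopsy. No probe of any gene passed in either period: 0 of 34150 (0.0%) within early and 0 of 33598 (0.0%) within late, with 1802 (5.28%) and 388 (1.15%) at an unadjusted limma p under 0.05. Of the 20 member probes, 19 had a negative slope within early, against 55.7% of all probes, and none had an unadjusted p under 0.05. LGALS8 had the smallest unadjusted p, with a slope of -0.17 ± 0.09 (SE) log2 units per 10 days (limma adjusted p = 0.9746). Its highest early value, -2.12, was that of cow 4 on day 49, and the LGALS8 slope without that cow is not given here. The steepest was MUC13 A_73_103769 at -1.07 ± 0.68 per 10 days, and it was -0.62 ± 0.55 without cow 4 and -0.96 ± 0.56 without cow 10. Within late the slopes were between -0.02 and 0.29 and 14 of 20 were positive, while 43.3% of all probes had a negative slope.

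For each of these genes except MUC16, whose probe was not tested, the 3 other genes of most similar pattern were taken by Pearson r over the 20 arrays, after subtracting the mean of each period, among 11927 named genes. MUC1 was most like SLC44A4 (r = 0.89), PLCH1 (0.85) and PEBP4 (0.83). MUC13 was most like PAPOLG (0.88), CRIM1 (0.87) and UPK1A (0.85), and MUC15 was like KIF16B (0.78), ATRN (0.78) and MAP3K11 (0.77). LGALS1 was nearest to CXCR7 (0.91), RBMS1 (0.90) and MMP19 (0.89), and LGALS3 to MSRB3 (0.93), ZNF511 (0.86) and FAP (0.85). LGALS4 was nearest to CYP3A5 (0.83), STAT3 (0.82) and BoLA (0.79), LGALS8 to ANXA5 (0.91), ANXA2 (0.91) and BACE2 (0.90), and LGALS9 to CD97 (0.83), KCNIP2 (0.82) and RUNX3 (0.81). These values share the arrays, their scaling and the arrays that stood apart, and describe likeness only.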

How the data were processed

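Endometrial RNA of 10 cows in 2 periods was labelled with Cy3 and hybridised to 20 one-colour arrays, per the labels' protocols. Per the file headers, the deposited intensity values are spot signals read by Agilent Feature Extraction 10.5.1.1, whose processed signal is background-subtracted. The deposited value table holds log2 values. On every array they matched levels computed here and centred per probe, with r of 0.99997 or more, and they served as an alternative.

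Levels were taken as log2 of the processed signal after subtracting the 75th percentile of that array. Replicate spots were averaged per probe, omitting controls and spots that the scanner software marked as outliers. A probe was tested if well above background on at least 8 of 20 arrays (4 of 10 for day trends). The periods were contrasted with limma 3.58.1 in R 4.3.3, two-sided, with cow as a fixed block and a Benjamini-Hochberg threshold of 0.05. Differences between probes of a gene, a comparison added after the data were seen, were fitted likewise. On simulated data of 33458 probes the late minus early fit recovered 38% of 50 changes of 0.5 and 84% of 50 changes of 1 on the log2 scale, with 14 false calls. Precision is limited by how many arrays there are.

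Arrays were paired by title and animal number in the labels, although late samples have source names with other cow numbers. After subtracting period means, both arrays of 1 cow correlated at -0.11 to 0.77 (median 0.41), above 0.1 in 8 of 10 cows. Arrays of different cows had a median of -0.03.

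Genes were named from the files and, for 33595 probes, through a RefSeq table, used for names only. The members and lists were chosen with earlier results of these data known. All member probes are named. Of each list, up to 4 genes past the threshold are named by smallest p, otherwise the 2 of smallest p, and for likeness the 3 genes of highest r. MUC13 and MUC16 probes were found by accession or description. Alternatives covered background correction, normalization, scaling, filters, the variance model, blocks, slides and cows left out.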

Additional observations from a re-analysis of the deposited data

Results flagged for a closer look

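In a set of 10 arrays of 1 period, a value was singled out where its gap to the nearest other array, divided by the whole range, passed Dixon's 95% critical value. With normally distributed values this happens in about 1 of 20 sets, and 7 of 46 sets of these probes were singled out. The share over all probes of the array is not given here, so the count is not read as a trait of these genes. Among those singled out were the 3 untested probes, each well above background on fewer than 8 arrays: MUC13 A_73_P122616, MUC15 A_73_102821 and MUC16 A_73_P084081. Probes of a gene share arrays, so the sets are not independent.

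The late array of cow 6 gave 4 of them. It was the highest late array by MUC13 A_73_P096226, at -2.80 against -5.73 for the next, and by MUC13 A_73_P122616, at -5.96 against -8.78. It was also the highest by MUC15 A_73_102821, at -5.25 against -8.42, and by MUC16 A_73_P084081, at -6.17 against -8.41. The early array of cow 4 was the highest early array by the same MUC16 probe, at -0.46 against -5.00.

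The late array of cow 5 was the lowest for MUC1 A_73_115084, at 0.38 against 1.84. The early array of cow 9 was the highest for LGALS3 A_73_102756, at 4.04 against 3.24.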

How the results depend on the processing

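No member probe was called late minus early, and 2 settings each called 1: cow as a random effect (LGALS8) and leaving out cows 4 and 9 (MUC1 A_73_P350126). These 2 settings called 4.56% and 0.92% of all tested probes. Of the 11 differences between probes of a member, quantile normalization called 3 (LGALS1 A_73_P099051, LGALS4 A_73_P166562 and MUC1 A_73_P397951). Leaving out cow 9 called that of LGALS4, and a filter on all arrays that of MUC1. Over all pairs these 3 settings called 475 of 14373 (3.30%), 219 of 14373 (1.52%) and 679 of 12032 (5.64%). The counts behind the background shares moved more. Against 381 probes called late minus early (31% of them higher), the count was 687 with quantile normalization (43% higher), 380 with normexp correction (47% higher), 466 with the median as scaling point (41% higher), 135 without a filter, 252 with 1 probe per gene (41% higher) and 64 with slide as a random block. It was 0 with slide as a fixed block, within slide 3, and within slide 3 without the early array of cow 9 (585, 2729 and 2837 at an unadjusted limma p under 0.05). Leaving out each cow gave 67 (cow 8) to 465 (cow 5). Without cow 1, 2, 3, 4, 6, 7, 9 or 10 it was 68, 92, 97, 168, 99, 198, 219 or 74, and without cow 7 59.6% were higher.

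On the pairing, the unpaired fit (no replicate block) called 195 probes and cow as a random effect 1540. Against 410 pairs of probes called, the count was 132 with normexp correction, 102 with a trended and robust variance, 81 with slide as a random block and 18 without the replicate block, against 679 with a filter on all arrays and 834 with cow as a random effect. It was 0 with slide as a fixed block and within slide 3 with or without the early array of cow 9, 1 without cows 4 and 9, and 0 (without cow 3, 6 or 8) to 353 (without cow 2) leaving out each cow. Day trends gave 0 calls under every setting run. With slide as a fixed block 17 of 20 member probes were positive, and without cows 4 and 9 it was 8. The slide layout makes the first of these fits count the differences of cows 3, 4, 7 and 8 with reversed sign. Its direction is therefore not that of a mean over cows. The cause of the count without cows 4 and 9 was not tested.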

Other observations

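The 3 arrays of high MUC13 were chosen after its values were seen. Of 33764 tested probes, 2 had these 3 arrays as their highest with a gap of more than 1 log2 unit to the other 17, and both were MUC13 probes: A_73_P096226 with a gap of 2.93 and A_73_103769 with a gap of 2.55. These 2 probes met the rule by the choice of the arrays, so the count bears only on the other probes.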
